A study of Rattus norvegicus with 31 samples.

Results

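Transcripts of 9 p53 target genes were examined in the livers of female Wistar rats after oral gavage with pesticides for 28 days. The genes were Cdkn1a, Gadd45a, Ccng1, Mdm2, Bax, Bbc3, Phlda3, Sesn1 and Sesn2, taken by symbol from the 26312 genes of the count table. All 9 were listed and all 9 were among the 19904 genes tested. The 31 livers came from young adult rats of the strain Crl:WI. The 8 controls received the vehicle alone, an aqueous solution of carboxymethyl-cellulose that was also given with every compound. Thiacloprid (THI), a neonicotinoid insecticide, was given at 108 mg/kg bw/day to 4 rats. Imazalil (IMZ), an azole fungicide, was given at 93 mg/kg bw/day to 4 rats. Clothianidin (CTD), a further neonicotinoid, was given at 288 mg/kg bw/day, and livers of 3 rats were sequenced. The paper marks this group as having lost at least 1 rat, killed when moribund, so the 3 livers are from the remaining rats. The mixtures had 4 rats each. In THI + IMZ, THI was given at 54 and IMZ at 46 mg/kg bw/day. In THI + CTD these values were 54 for THI and 134 for CTD, and in IMZ + CTD 46 for IMZ and 135 for CTD. Each single compound was thus tested at 1 dose, and the doses of the compounds differ.

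p53 is a transcription factor that is normally kept scarce because Mdm2 marks it for degradation. After DNA damage and other stress it accumulates and switches on genes that stop the cell cycle, repair DNA, change metabolism or start apoptosis, and one of them is Mdm2 itself, which closes a feedback loop. In the liver, several of these genes also answer to signals other than p53, such as nutrient state, growth factors and amino acid shortage. Their transcript levels are therefore a readout of more than 1 pathway.

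p53 binds DNA at pairs of a short motif known as the p53 half-site. RefSeq promoters on build GRCr8 were found for 7 of the 9 genes, and the 250 bases before the transcription start were searched for this half-site on both strands. A match was found in 4 of the 7, while 6.64% of the 33469 rat promoters searched hold one. Among 30 further p53 targets, 24 had a promoter entry and 2 of these, Aen and Ei24, held a match. The matches are shown because they are the stretch of each promoter that resembles the binding motif, and capitals mark the half-site. A match is a likeness of letters, and binding was not measured. The window of Cdkn1a is chr20:7150696-7150775 on the plus strand, with the half-site 201 bases before the start. The window of Gadd45a is chr4:97486803-97486882 on the minus strand, at 48 bases. The window of Ccng1 is chr10:25685047-25685126 on the minus strand, at 232 bases. The window of Sesn1 is chr20:46948512-46948591 on the plus strand, at 172 bases. All 4 are written 5′ to 3′ in the direction of transcription.
Cdkn1a: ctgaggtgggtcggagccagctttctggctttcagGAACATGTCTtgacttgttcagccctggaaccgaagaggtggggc
Gadd45a: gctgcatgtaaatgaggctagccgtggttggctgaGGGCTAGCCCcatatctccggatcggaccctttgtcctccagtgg
Ccng1: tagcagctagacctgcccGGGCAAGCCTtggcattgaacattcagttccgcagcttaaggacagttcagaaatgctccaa
Sesn1: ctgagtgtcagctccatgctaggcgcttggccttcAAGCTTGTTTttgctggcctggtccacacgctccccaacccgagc
The promoters of Mdm2, Phlda3 and Sesn2 held no match within these 250 bases. The letters TGATGNAA, the core of the element bound by ATF4 with C/EBP factors, were in 0 of the 7 promoters on either strand and in 3.4% of all.

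The smallest library held 31.8 M counts and the largest 101.2 M, around a median of 41 M. The controls held 32.7 to 101.2 M (median 60.5 M) and the treated livers 31.8 to 54.8 M (median 40.2 M), so the controls were sequenced more deeply at the median. The lowest count of any of the 9 genes in any liver was 129, for Cdkn1a in a THI liver. Levels are given as CPM, the count relative to the library total after TMM scaling. Fold changes come from edgeR's quasi-likelihood test in 1 model of all 31 livers, with p-values adjusted by Benjamini-Hochberg over the 19904 genes, and a gene was called at an adjusted p under 0.05. Hepatocyte markers such as albumin made up 174643 to 267377 CPM in sum, and all 8 were detected in every group.

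The p53 targets did not move as 1 group. THI changed 1 of the 9 genes (0.543% of all genes were called, 0.166% as lower), a decrease of Cdkn1a. IMZ changed 0 of 9 by edgeR (0.251% of all), with 0 also at an unadjusted p under 0.05 (8.08% of all) and 0 called by DESeq2. CTD changed 2 of 9 (12.7% of all, 6.03% as lower), decreases of Sesn1 and Sesn2. THI + IMZ changed 1 of 9 (1.18% of all, 0.849% as higher), an increase of Gadd45a. THI + CTD changed 1 of 9 (4.39% of all, 1.71% as lower), a decrease of Cdkn1a. IMZ + CTD changed 0 of 9 by edgeR (1.46% of all), with 2 at an unadjusted p under 0.05 (12.8% of all) and 0 called by DESeq2. The share of members called in CTD, 2 of 9, stands against a background in which more than 1 gene in 10 was called. The median log2 fold change of the 9 genes lay between -0.25 in THI + CTD and -0.01 in THI + IMZ, beside -0.03 and -0.02 for all genes. Over all 7 groups together, 3 of the 9 genes differed (9.51% of all genes), namely Cdkn1a (adjusted p = 0.000334), Gadd45a (0.00321) and Sesn2 (0.0465).

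**Figure D1:**
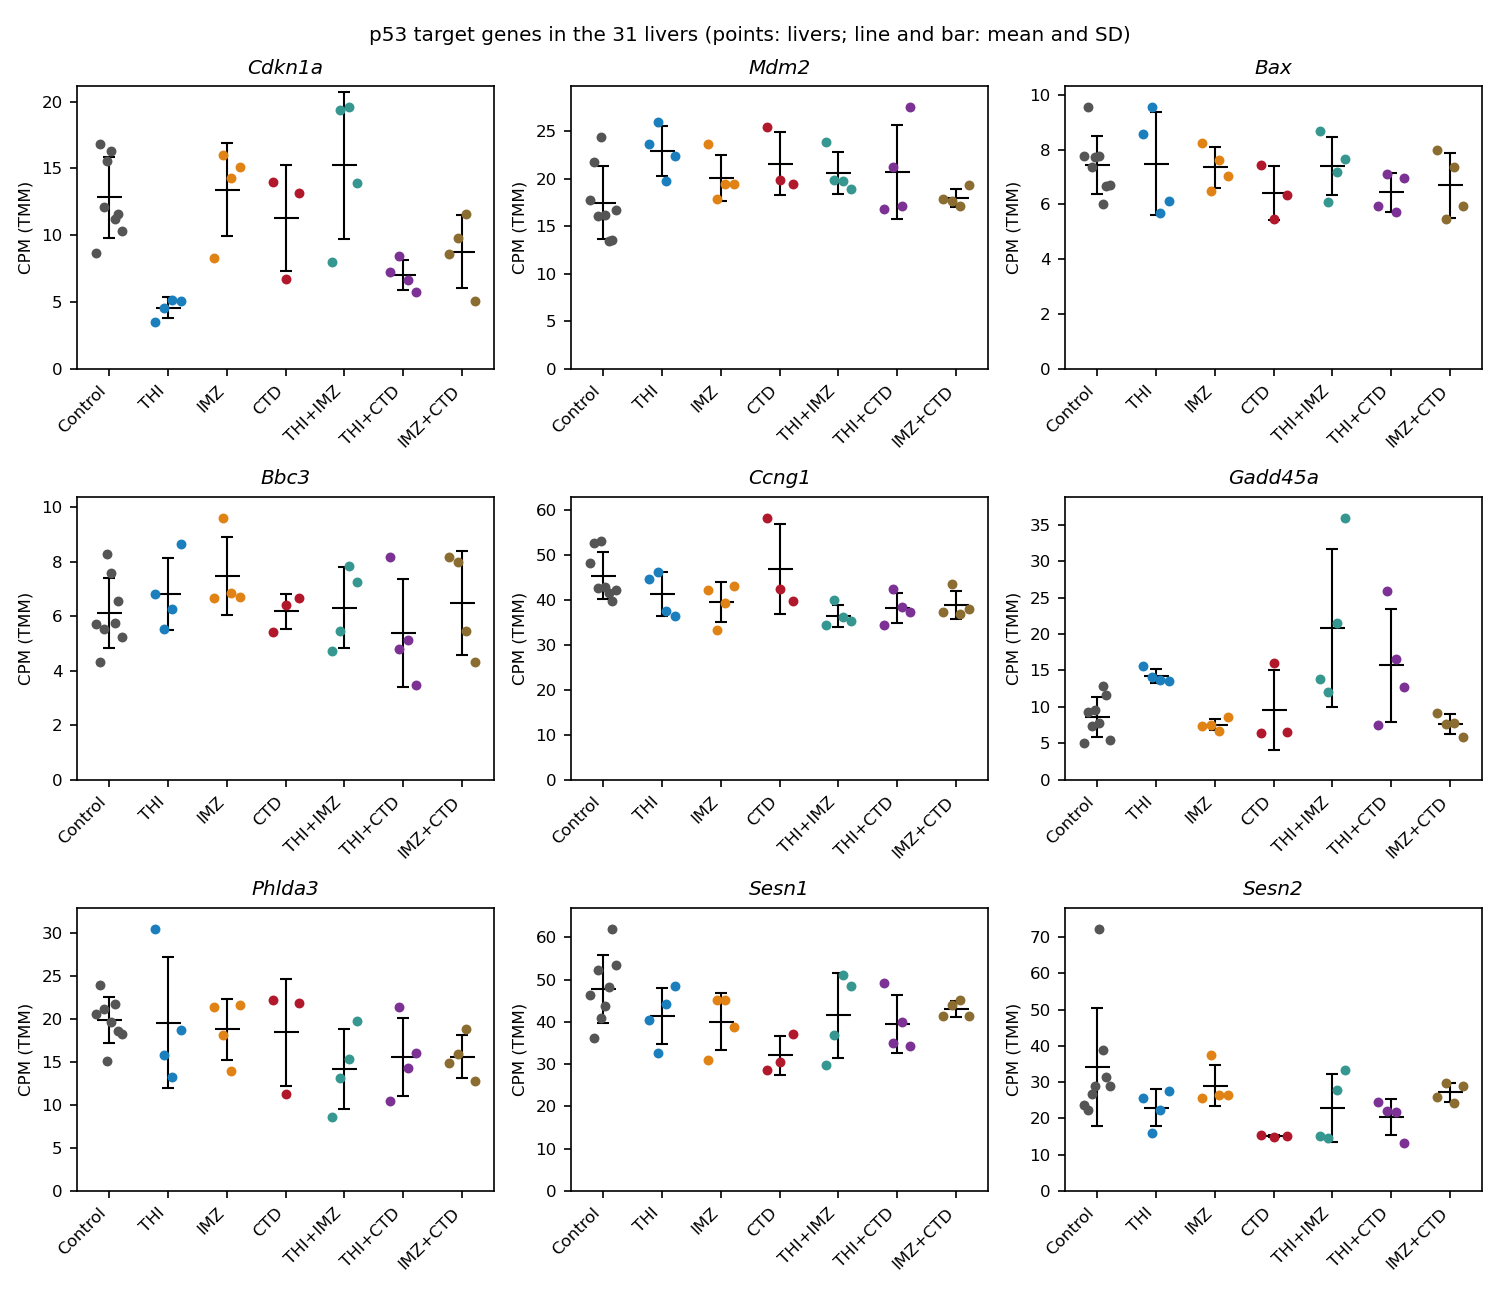
Level of each p53 target gene in CPM (TMM-scaled, vertical axis from 0) in the 31 livers by group, with 1 point per liver and the group mean and SD as a line and bar. The 4 THI livers lie below all controls for Cdkn1a, the 3 CTD livers lie below all controls for Sesn2, and 1 control liver stands at 72.3 CPM for Sesn2.

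Cdkn1a encodes p21, the inhibitor of cyclin-dependent kinases through which p53 stops the cell cycle. Its level in the 4 THI livers was 3.48, 4.54, 5.18 and 5.07 CPM, while the 8 controls ranged from 8.7 to 16.8 with a median of 11.8. The groups did not overlap, as 0.688% of all genes showed in this direction. The mean was 4.57 ± 0.78 CPM (SD, n = 4) against 12.8 ± 3.01 (n = 8), a 2.8-fold decrease. The log2 fold change was -1.49 (SE 0.25, 95% confidence interval -1.99 to -0.98, adjusted p = 0.00103), which placed Cdkn1a at rank 22 of all genes by p. Leaving out any 1 of the 31 livers kept this call, with adjusted p from 0.000287 to 0.013.

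In THI + CTD the Cdkn1a level was 7.23, 8.41, 6.64 and 5.77 CPM. All 4 livers were again below all controls, as 1.82% of all genes were here. The decrease was 1.83-fold, with a log2 fold change of -0.87 (SE 0.24, adjusted p = 0.0272). This call was lost without THI + CTD replicate 1, 3 or 4, with adjusted p of 0.06, 0.0993 and 0.0963. IMZ + CTD livers gave 8.58, 9.82, 11.6 and 5.07 CPM, of which 2 were below all controls, and the log2 fold change of -0.55 did not pass (adjusted p = 0.309).

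The other treatments gave Cdkn1a levels within or near the control range. The 4 IMZ livers had 8.26, 16, 14.3 and 15.1 CPM, and the log2 fold change was 0.06 (adjusted p = 0.98). CTD livers had 14, 6.72 and 13.2 CPM, with a log2 fold change of -0.19 (adjusted p = 0.681). THI + IMZ livers had 7.99, 19.4, 19.6 and 13.9 CPM, so that 2 were above all controls and 1 was below. The group means ran in the order THI, THI + CTD, IMZ + CTD, CTD, control, IMZ and THI + IMZ. The livers of most neighbours in this order overlapped. THI (up to 5.18 CPM) and THI + CTD (from 5.77 CPM) were not tested against each other. The share of all genes with such a gap was not counted.

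Gadd45a encodes a small stress protein that acts in growth arrest and DNA repair. Its level in THI + IMZ was 13.8, 12.1, 21.5 and 36 CPM, against controls from 5.11 to 12.9 with a median of 8.53. The livers were above all controls in 3 of 4 cases. The increase was 2.41-fold, with a log2 fold change of 1.27 (SE 0.27, 95% confidence interval 0.72 to 1.82, adjusted p = 0.0119). Without THI + IMZ replicate 4, the liver at 36 CPM, the log2 fold change was 0.87 and the adjusted p 0.142.

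The 4 THI livers gave 15.6, 14.1, 13.7 and 13.5 CPM of Gadd45a. All of them were above all 8 controls, as 0.734% of all genes were, and their SD of 0.919 CPM was the smallest but 1 of the treatments. The log2 fold change of 0.72 (SE 0.27) nevertheless missed the threshold after adjustment (adjusted p = 0.411). THI + CTD livers spread widely, at 7.52, 25.9, 16.6 and 12.8 CPM, and the log2 fold change of 0.86 was also not called (adjusted p = 0.0664). That value passed without control replicate 6 (0.0403), CTD replicate 2 (0.0411), THI + IMZ replicate 4 (0.0374) or THI + CTD replicate 1 (0.0203).

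Gadd45a stayed within the control range in IMZ (6.75 to 8.56 CPM) and IMZ + CTD (5.88 to 9.17). CTD livers had 6.4, 16 and 6.49 CPM, so that a single liver exceeded all controls. The 3 groups that held THI had the highest group means, 14.2 CPM in THI, 15.7 in THI + CTD and 20.8 in THI + IMZ, and the remaining group means were 9.62 CPM or lower. Neighbours in the order of the means overlapped throughout. The variation between livers of a group was the largest among the 9 genes, with a biological coefficient of variation of 31.9%, against 11.8% for Ccng1.

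Ccng1 encodes cyclin G1, which recruits a phosphatase to Mdm2. The controls ranged from 39.8 to 53.1 CPM with a median of 42.8. Livers of THI + IMZ had 34.4, 39.9, 36.2 and 35.4 CPM, 3 of them below all controls, and the log2 fold change was -0.32 (adjusted p = 0.14). In THI + CTD it was -0.25 (adjusted p = 0.165) and in IMZ + CTD -0.22 (adjusted p = 0.335), with 3 of 4 livers below all controls in each. CTD livers had 58.3, 42.5 and 39.9 CPM, and the log2 fold change was 0.05. No comparison called Ccng1 by edgeR, while DESeq2 called its difference over all 7 groups (adjusted p = 0.0487).

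Mdm2 encodes the ubiquitin ligase that holds p53 down. The controls had 13.5 to 24.4 CPM, with a median of 16.4, and the 4 THI livers had 23.7, 26, 19.7 and 22.4. The log2 fold change in THI was 0.39 (SE 0.13, adjusted p = 0.294). In CTD, with 25.4, 19.9 and 19.4 CPM, it was 0.31 (adjusted p = 0.192). The estimate was above 0 in all 6 treatments, which share the same controls, and no comparison called it.

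Bax, Bbc3 and Phlda3 act on the side of cell death. Bax forms pores in the mitochondrial membrane, Bbc3 (PUMA) is a BH3-only protein that releases it, and Phlda3 is an inhibitor of Akt. None of the 3 was called by edgeR in any of the 12 comparisons, over which their adjusted p lay at 0.371 or above. Bax ranged from 5.48 to 9.56 CPM over the 31 livers, and its log2 fold change from -0.21 in CTD (95% confidence interval -0.52 to 0.10) to 0.01 in THI (-0.26 to 0.29). Bbc3 ranged from 3.49 to 9.61 CPM. Its log2 fold change was highest in IMZ at 0.28 (-0.11 to 0.67) and lowest in THI + CTD at -0.19 (-0.59 to 0.21). Phlda3 ranged from 8.57 to 30.5 CPM, both extremes among treated livers. Its log2 fold change was lowest in THI + IMZ at -0.49 (adjusted p = 0.371), where 2 of 4 livers were below all controls.

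Sesn2 and Sesn1 encode sestrins, which restrain mTORC1 and are raised by p53 and, for Sesn2, also by ATF4. The 3 CTD livers had 15.4, 15 and 15.1 CPM of Sesn2. The 8 controls ranged from 22.2 to 72.3 CPM with a median of 28.9, so that the groups did not overlap, as 5.48% of all genes showed in this direction. The decrease was 2.25-fold, with a log2 fold change of -1.17 (SE 0.29, 95% confidence interval -1.75 to -0.59, adjusted p = 0.00533). Control replicate 5, the liver at 72.3 CPM, raised the control mean from 28.6 ± 5.47 (n = 7) to 34.1 ± 16.2 CPM (n = 8). Without it the log2 fold change in CTD was -0.91 (adjusted p = 0.00534).

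For Sesn2 the group means of the other treatments lay above that of CTD, and none of these treatments was called against the controls by edgeR. THI + CTD livers had 24.6, 22.1, 21.8 and 13.2 CPM, 3 of them below all controls, with a log2 fold change of -0.74 (adjusted p = 0.0856) that was -0.49 without control replicate 5. THI had 25.7, 15.9, 22.4 and 27.5 CPM (log2 fold change -0.58, adjusted p = 0.482, and -0.33 without control replicate 5). THI + IMZ had 15.2, 14.5, 27.9 and 33.3 CPM, with a log2 fold change of -0.58 that was -0.33 without that control. IMZ (25.7 to 37.5 CPM) and IMZ + CTD (24.3 to 29.8 CPM) lay within the control range. The difference over all 7 groups was close to its threshold. It was lost when any 1 of 19 livers was left out, with adjusted p up to 0.104, reached without CTD replicate 1.

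Sesn1 in CTD was at 28.5, 30.5 and 37.2 CPM, and the controls ranged from 36.2 to 62 with a median of 47.3. The CTD livers were below all controls in 2 of 3 cases. The decrease was 1.49-fold, with a log2 fold change of -0.58 (SE 0.16, adjusted p = 0.0132). Without CTD replicate 1 the adjusted p was 0.101 and without CTD replicate 2 it was 0.0696. In the other 5 treatments the log2 fold change of Sesn1 was between -0.27 and -0.16, and none was called.

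In CTD livers, 12 of 56 cell type markers in 8 lists were called, beside 12.7% of all genes. Among the 12, 5 were higher and 7 lower, beside 6.62% and 6.03% of all genes. Of 6 red blood cell markers, 4 were higher and 1 was lower, and their sum was 156 to 188 CPM against 27.5 to 67.9 in the controls. Of 9 Kupffer cell markers 3 were lower, with sums of 373 to 590 CPM against 463 to 763. Of 7 endothelial cell markers 2 were lower, with sums of 213 to 273 CPM against 252 to 348, and of 7 stellate cell and fibroblast markers 1 was higher and 1 was lower. No marker of hepatocytes, lymphocytes (2 lists) or bile duct cells was called in CTD. The part of these cells in the lower Sesn1 and Sesn2 levels was not tested. In whole liver, fewer cells of a type and less RNA per cell cannot be told apart. Of the 56 markers, THI called 0 by edgeR (0.543% of all genes), with 6 at an unadjusted p under 0.05 (8.68% of all). THI + IMZ called 1 (1.18% of all genes), a higher Apoa1. THI + CTD called 9 (4.39% of all genes), of which 2 were higher (2.67%) and 7 lower (1.71%), 3 of these from Kupffer cells. The part of these cells in the lower Cdkn1a level was not tested.

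**Figure D2:**
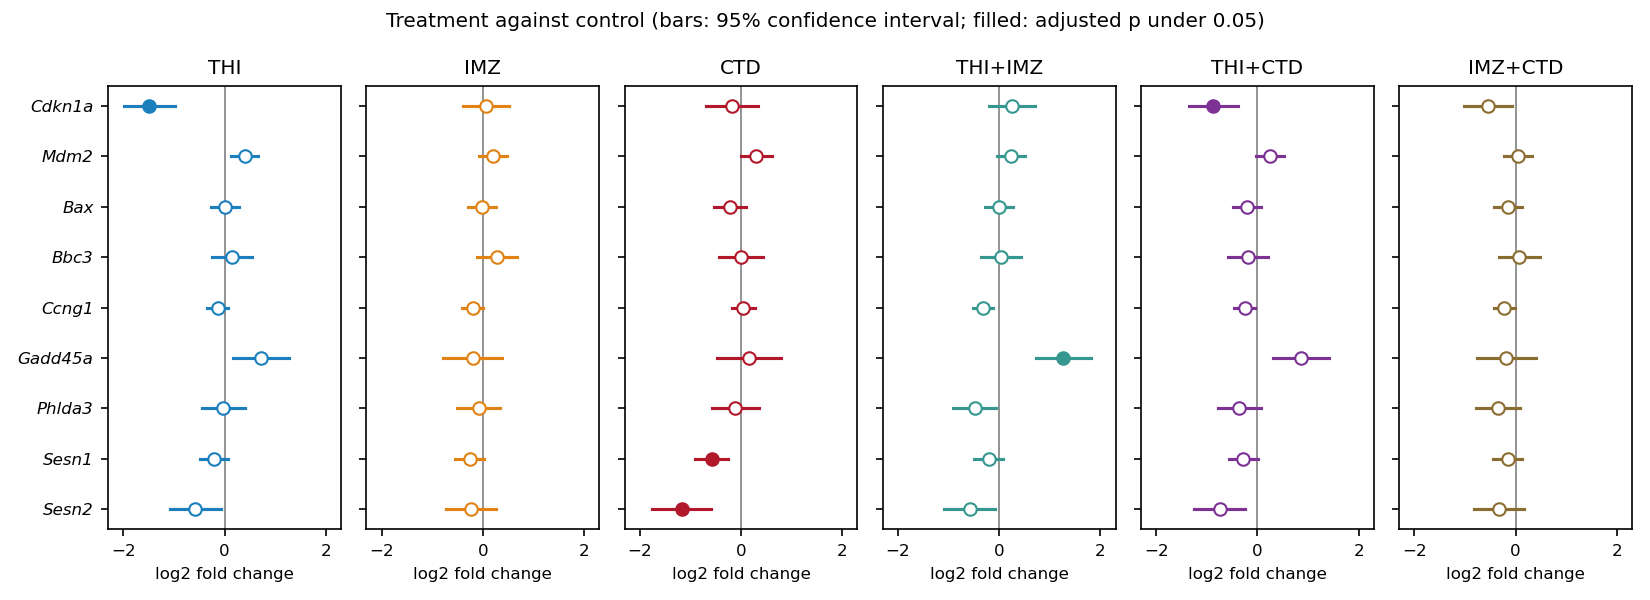
Log2 fold change of the 9 genes against the controls (horizontal axis) in the 6 treatments, with bars for the 95% confidence interval and filled points for an adjusted p under 0.05. The filled points are Cdkn1a in THI and THI + CTD, Sesn1 and Sesn2 in CTD, and Gadd45a in THI + IMZ.

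THI and CTD are both neonicotinoids and were compared directly, at 108 and 288 mg/kg bw/day. Since the doses differ, the difference is one between these treatments and not between the molecules at a matched dose. Of the 9 genes 1 was called (6.62% of all genes, 3.42% as higher in CTD). Cdkn1a was 2.47-fold higher in CTD than in THI, with a log2 difference of 1.30 (95% confidence interval 0.71 to 1.89, adjusted p = 0.00434). For Sesn2 the difference of CTD from THI was -0.59 (-1.22 to 0.03, adjusted p = 0.292) and for Sesn1 -0.37 (-0.72 to -0.01, adjusted p = 0.24), so that a lower sestrin level in CTD than in THI did not pass after adjustment. For Gadd45a it was -0.56 (-1.29 to 0.16, adjusted p = 0.41). Between CTD and IMZ none of the 9 genes was called by edgeR (4.67% of all genes), with 1 at an unadjusted p under 0.05 (17.9% of all) and 1 called by DESeq2. That gene was Sesn2, at a log2 difference of -0.94 (-1.57 to -0.31, adjusted p = 0.0785). Without control replicate 5 its adjusted p was 0.0198.

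For the mixtures, the log2 fold change was set against the sum of the changes of the single compounds, weighted by dose (0.5 for THI and IMZ and 0.47 for CTD). In THI + IMZ 0 of 9 genes departed from this sum by edgeR (0.0151% of all genes), with 3 at an unadjusted p under 0.05 (6.46% of all) and 1 called by DESeq2. Cdkn1a was 0.96 above the sum on the log2 scale (95% confidence interval 0.51 to 1.41, adjusted p = 0.109). This was the gene called by DESeq2, with an adjusted p of 0.0131, and it also passed edgeR without THI + IMZ replicate 1 (1.17, adjusted p = 0.0246). Gadd45a was 1.01 above the sum (0.46 to 1.56, adjusted p = 0.246). Phlda3 differed from it by -0.43 (adjusted p = 0.768).

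In THI + CTD 0 of 9 genes departed from the sum by edgeR (0.286% of all genes), with 0 at an unadjusted p under 0.05 (9.66% of all) and 0 called by DESeq2. Cdkn1a differed from it by -0.04 (-0.52 to 0.44) and Sesn2 by 0.10 (-0.40 to 0.60). In IMZ + CTD 0 of 9 departed by edgeR (1.16% of all genes), with 1 at an unadjusted p under 0.05 (14.3% of all) and 0 called by DESeq2. That gene was Cdkn1a, at -0.49 (-0.97 to -0.01, adjusted p = 0.336). Cdkn1a thus gave estimates above, at and below its sum in the 3 mixtures, and none of them passed edgeR's threshold.

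**Figure D3:**
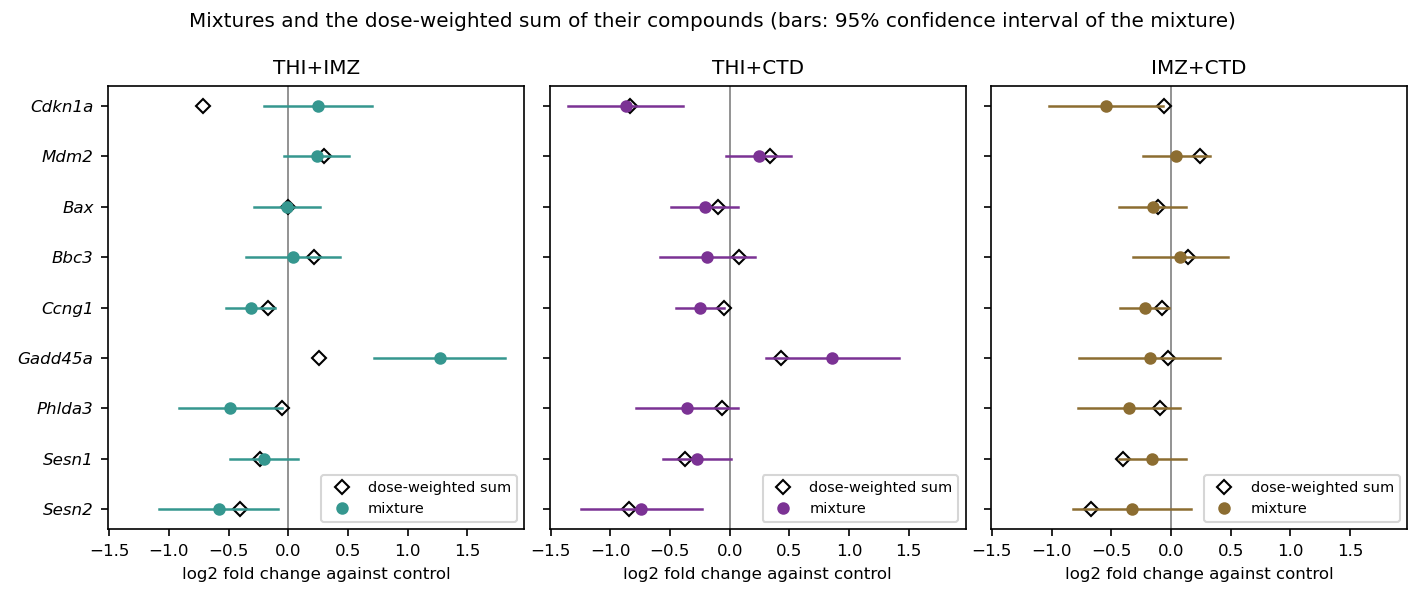
Log2 fold change against the controls (horizontal axis) of the 9 genes in each mixture (filled circles, with the 95% confidence interval) and the dose-weighted sum of the single compounds (open diamonds). The widest gaps are in THI + IMZ, where Cdkn1a lies 0.96 and Gadd45a 1.01 above the sum.

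Further p53 targets were taken as a list of 30 genes, of which 27 were tested. In THI 1 of them was called (0.543% of all genes, 0.166% as lower), a decrease of Trp53inp1, a cofactor of p53 and of autophagy. Its level went from 20.1 to 36.5 CPM in the controls to 13.9 to 18.6 (log2 fold change -0.68, adjusted p = 0.00526). IMZ, THI + IMZ and IMZ + CTD called 0 of 27 by edgeR, with 3, 4 and 4 at an unadjusted p under 0.05 and 0, 1 and 2 called by DESeq2. Of all genes, edgeR called 0.251%, 1.18% and 1.46% in these treatments, and 8.08%, 11.1% and 12.8% had an unadjusted p under 0.05. Without control replicate 2 or CTD replicate 1, THI + IMZ and IMZ + CTD called 1 each, as IMZ + CTD did without IMZ replicate 4. THI + CTD lowered 1 (3 by DESeq2, and 1.71% of all genes by edgeR), the antiproliferative gene Btg2, to 11.6 to 20.9 CPM from 20.8 to 50.7 (adjusted p = 0.021). That count was 0 without THI + CTD replicate 1 or 3, and 2 without control replicate 2 or 4, CTD replicate 1, THI + IMZ replicate 4 or THI + CTD replicate 4. The median log2 fold change of the list lay between -0.10 in THI + IMZ and -0.01 in THI + CTD, beside -0.02 and -0.03 for all genes.

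CTD changed 6 of the 27 further targets, 4 lower and 2 higher, beside 12.7% of all genes called, 6.03% as lower and 6.62% as higher. The share of higher genes in the list was thus near that of all genes, while that of lower genes, 4 of 27, was above it. Neither share was tested. Btg2 was at 9.25 to 15.5 CPM against 20.8 to 50.7 in the controls (log2 fold change -1.40, adjusted p = 0.00176). Gdf15, a secreted stress hormone, was at 7.32 to 8.51 CPM against 19.2 to 52.8 (-1.83, adjusted p = 0.0185). Both genes were lower in all 3 CTD livers than in all controls, as were 5.48% of all genes. The stress kinase gene Plk3 was also lower (-0.95, adjusted p = 0.0245). Pmaip1, which encodes the BH3-only protein NOXA, was rare, with 1 count over the 3 CTD libraries and 66 over the 8 controls, a ratio of 0.0669 per count sequenced (exact 95% interval 0.00167 to 0.386, which covers counting error only). The 2 higher genes were Rrm2b, a ribonucleotide reductase subunit (0.42, adjusted p = 0.0211), and Apaf1, the core of the apoptosome (0.38, adjusted p = 0.0332). Without CTD replicate 1, 3 of the 27 were called.

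Values were read for 12 regulators of p53. The kinase gene Atr, which senses stalled replication forks, was at 19, 15.6 and 14.9 CPM in CTD against 9.5 to 12.6 (0.66, adjusted p = 6.14e-05). Prkdc, the DNA-dependent kinase of end joining, was lower in THI + CTD (-0.40, adjusted p = 0.00469). Mdm4, Atm, Chek1, Chek2, Cdkn2a, Usp7, Rchy1, Cop1, Rps27l and Hipk2 were called by edgeR against control in none of the 6 treatments.

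p21 and p53 lower many genes of the cell cycle, and 15 of these were listed. None of the 15 was called in THI (0.543% of all genes by edgeR), the treatment with the lowest mean of Cdkn1a, by edgeR or by DESeq2. At an unadjusted p under 0.05 there were 0 (8.68% of all), and log2 fold changes ran from -0.32 to 0.39. In CTD all 15 were higher (6.62% of all genes), from 0.95 to 3.44, with Cdkn1a not called. The part of Cdkn1a in the levels of these 15 genes was not tested. THI + CTD raised 13 (2.67% of all genes) and IMZ + CTD 12 (1% of all). THI + IMZ raised 7 (0.849% of all), and 1 without THI + IMZ replicate 4. IMZ + CTD raised 5 without IMZ + CTD replicate 3. IMZ called 0 by edgeR (0.251% of all) with 13 at an unadjusted p under 0.05 (8.08% of all), 2 called by DESeq2 and a median of 1.07. It called 1 by edgeR without CTD replicate 1 or THI + IMZ replicate 4. Examples in CTD are Cdk1 at 3.44 and Ccnb1 at 3.24, the kinase and cyclin of mitotic entry, and Top2a at 3.40.

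**Figure D4:**
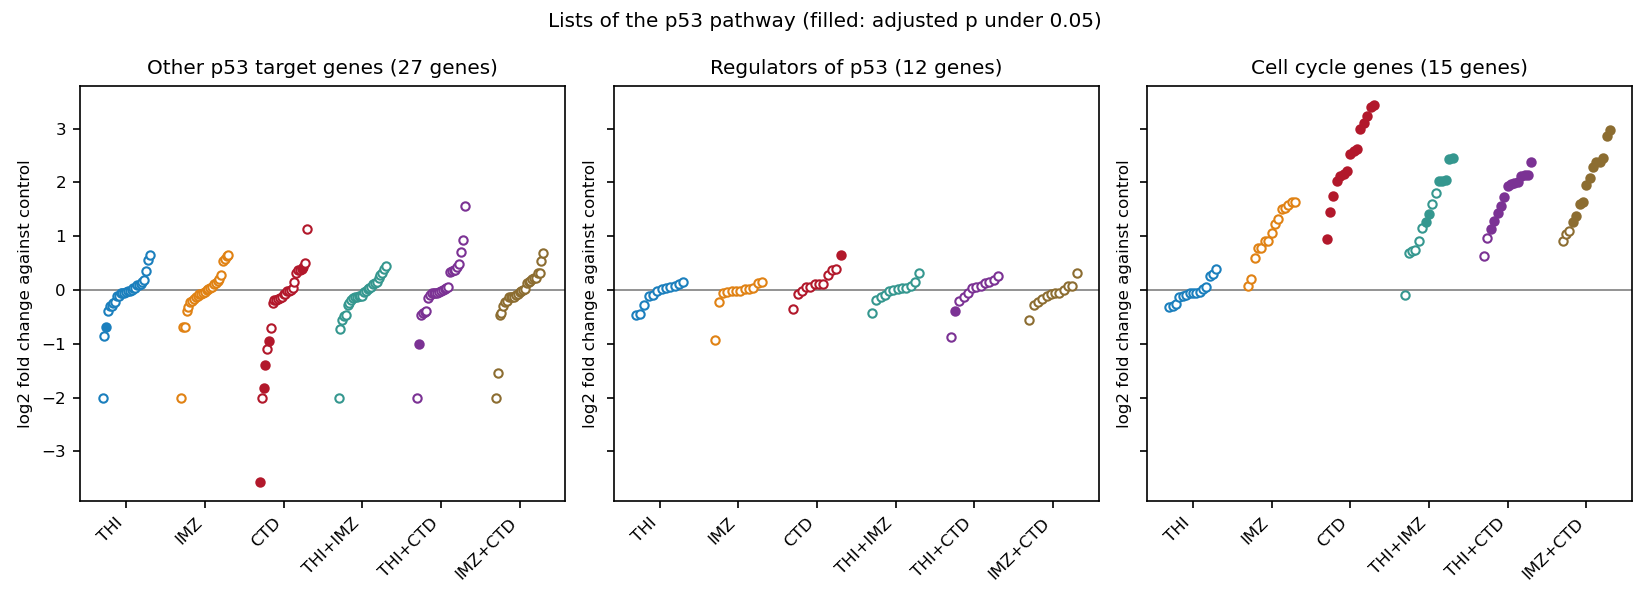
Log2 fold change against the controls (vertical axis) of the tested genes of 3 lists in the 6 treatments, each point 1 gene, filled at an adjusted p under 0.05. The 15 cell cycle genes lie around 0 in THI and between 0.95 and 3.44 in CTD, while most further p53 targets and p53 regulators lie near 0 in all treatments.

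Since Sesn2 also answers to ATF4 and Sesn1 to FOXO factors, lists of both were read beside them. Of 12 ATF4 genes tested, CTD raised 3 and lowered none, namely Asns (2.47), Psat1 (1.22) and Slc7a11 (2.63). The median log2 fold change of the 12 in CTD was 0.07, beside -0.07 for all genes. THI + CTD raised 2, Asns (1.49) and Psat1 (1.14). Of 11 fasting and FOXO genes tested, CTD lowered 5, namely Foxo1 (-0.73), Klf15 (-0.74), Igfbp1 (-2.77), Foxo3 (-0.73) and Irs2 (-1.24), and raised none. The median of the 11 in CTD was -0.63. THI + CTD lowered 3 of the 11 and raised 1. Of all genes, CTD called 6.62% as higher and 6.03% as lower, and THI + CTD 2.67% and 1.71%. The part of ATF4 or FOXO factors in the Sesn1 and Sesn2 levels was not tested. Of 13 clock genes tested, 4 were lower in IMZ + CTD (0.452% of all genes). In THI (0.166% of all as lower), CTD (6.03%) and THI + IMZ (0.332%) 1 was lower each. None was called in IMZ (0.251% of all genes) and THI + CTD (4.39%). Of 11 CAR and PXR targets tested, between 5 and 10 were higher in each treatment and none was lower. The share of all genes called as higher ran from 0.191% in IMZ to 6.62% in CTD.

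Whether the 9 genes vary together among livers of the same group was examined over the 36 pairs, as the correlation of log2 CPM after removal of the group means over the 31 livers, with 100000 permutations within groups. After Benjamini-Hochberg adjustment over the 36 pairs, 7 pairs passed by Pearson's r and 8 by Spearman's rho. The strongest was Mdm2 with Sesn1, at r = -0.74 (adjusted p = 0.00072) and rho = -0.73 (adjusted p = 0.00108), and r was -0.76 without the 2 livers farthest from the median of Mdm2. Mdm2 correlated with Ccng1 (r = 0.64, rho = 0.70, adjusted permutation p = 0.0059 and 0.00252) and with Bax (r = 0.63, rho = 0.65, adjusted permutation p = 0.00108 and 0.0018). Without the 2 farthest livers these values of r were 0.69 and 0.70.

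Sesn1 ran against Ccng1 (r = -0.61, rho = -0.61, adjusted permutation p = 0.0059 and 0.00828) and against Bax (r = -0.56, rho = -0.53, adjusted permutation p = 0.0133 and 0.0254). Without the 2 livers farthest from the median of Ccng1 or of Bax, in this order, r was -0.59 and -0.44. Bbc3 correlated with Sesn2 (r = 0.63, rho = 0.67, adjusted permutation p = 0.0059 and 0.00414) and with Sesn1 (r = 0.54, rho = 0.51, adjusted permutation p = 0.02 and 0.0376). Without the 2 livers farthest from the median of Bbc3, r was 0.69 and 0.59. Mdm2 with Sesn2 passed by rho alone (-0.49, adjusted permutation p = 0.0376). Within the 8 controls alone, r was -0.77 for Mdm2 with Sesn1, 0.95 for Mdm2 with Ccng1 and 0.75 for Mdm2 with Bax, but 0.08 for Bbc3 with Sesn1. Cdkn1a, Gadd45a and Phlda3 passed in no pair. Both genes of a pair were read from the same library. The median r over the 36 pairs was 0.05.

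**Figure D5:**
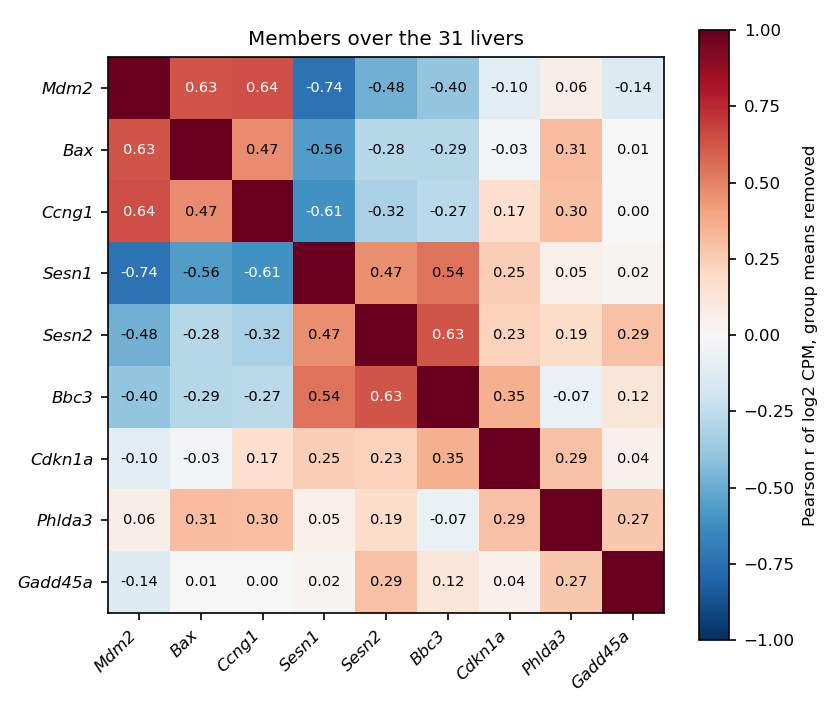
Pearson's r of log2 CPM, with group means removed, for each pair of the 9 genes over the 31 livers (colour scale from -1 to 1, values printed in the cells). Mdm2 correlates with Ccng1 at 0.64 and with Bax at 0.63, Sesn1 correlates with these 3 genes at -0.74 to -0.56, and Bax with Ccng1, at 0.47, did not pass.

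As a description, the genes whose log2 CPM followed each member most closely over the 31 livers, group differences included, were read from 10857 genes with a symbol and an average log2 CPM above 0. For Sesn1 they were Zfp395 (r = 0.89), Adck3 (0.88) and Ndrg2 (0.84). For Mdm2 they were Txnrd1 (0.80), Nars (0.79) and Atic (0.78), of which Txnrd1 encodes thioredoxin reductase and Nars an aminoacyl-tRNA synthetase. For Sesn2 they were Sik1 (0.80), Sds (0.74) and Thbs1 (0.74). For Gadd45a they were Socs3 (0.78), Dusp6 (0.78) and Irf1 (0.72), and Socs3, a feedback inhibitor of cytokine signalling, was highest in the same THI + IMZ liver as Gadd45a, at 40.7 CPM. The nearest genes were more distant for Bax (Aen, 0.68), Ccng1 (Exoc6, 0.70), Phlda3 (Piezo1, 0.67), Cdkn1a (CFLAR, 0.64) and Bbc3 (Loxl4, 0.63). Aen is itself a p53 target, and Rps27l, a regulator of p53, stood second for Ccng1 (0.67).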

How the data were processed

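Total RNA of 31 rat livers was sequenced by the authors with a stranded kit. Per the labels' processing notes, FastQC 0.11.5, STAR 2.5.2b, DESeq2 1.15.1 and build Rnor_5.0 were used. The deposited count table holds raw counts per Ensembl gene. The second deposited table holds a signal, in which every count was scaled by a size factor of DESeq2 (largest relative deviation 4.98e-15), and was used for this check only. Each rat was a replicate, and groups came from the sample titles.

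Counts were analysed in R 4.3.3 by edgeR 4.0.16. Genes whose counts summed to 2 or more entered, TMM was applied, and 1 quasi-likelihood model with 7 group means gave 12 comparisons, adjusted by Benjamini-Hochberg. Intervals are at 95%. Log2 CPM used a prior count of 2. Plots were drawn with matplotlib 3.10.9. Alternatives were DESeq2 1.42.0 (size factors and Wald test), a newer quasi-likelihood method, other filters on low counts, only the groups compared, a replicate block, thinned counts and each liver left out. The fits were tested on simulated data. The 9 genes and the 15 other lists were chosen with earlier results of these data known, and listed symbols without a row of that name or an older name were not analysed here. 1 gene of the lists is not reported here. Named genes are the 9 members in every comparison, the p53 regulators by name, and for each member up to 3 genes of highest r. From each other list at most 5 called genes with the smallest adjusted p are named, and 6 for the further p53 targets in CTD.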

Additional observations from a re-analysis of the deposited data

Results flagged for a closer look

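Of 54 sets of values, 1 per gene and group of 4 to 8 livers, 4 held a liver far from the others by Dixon's criterion, which chance meets in about 1 of 20 groups. Cdkn1a in IMZ replicate 1 was at 8.26 CPM, with the other 3 IMZ livers at 14.28 to 15.97. Bbc3 in IMZ replicate 2 was at 9.61 CPM, with the others at 6.67 to 6.87. Sesn2 in the same liver was at 37.45 CPM, with the others at 25.73 to 26.4. Sesn2 in control replicate 5 was at 72.27 CPM, with the other 7 controls at 22.2 to 38.75, and values without it are given above.

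The change of Cdkn1a differed between CTD and THI by 1.30 on the log2 scale in the direct test, edgeR's quasi-likelihood test with an adjusted p of 0.00434. The levels were 6.72 to 14 CPM in the 3 CTD livers and 3.48 to 5.18 CPM in the 4 THI livers. The doses of these treatments differ.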

How the results depend on the processing

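The call of Cdkn1a in THI and that of Cdkn1a between CTD and THI held under every alternative run. No called value changed sign. Of 855 values of single members under other settings 845 kept their side of the threshold, and of 3348 with 1 liver left out 3317 did. The number of members called moved as follows. With DESeq2's Wald test it was 1 for THI + IMZ against the sum and 1 for CTD against IMZ, which was also 1 with only the groups compared. With 1 liver left out it was 1 to 2 in CTD, 0 to 1 in THI + IMZ, 0 to 2 in THI + CTD, 0 to 1 for THI + IMZ against the sum and 0 to 1 for CTD against IMZ. The cause was not tested.

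Whether the replicate numbers of the labels pair the livers was not settled. Deviations from the group means correlated above 0.1 in 6 of 23 same-numbered pairs (r from -0.17 to 0.33). No reference was computed for these values, so a pairing was neither shown nor excluded. Replicate numbers 5 to 8 occur only among the controls, so these controls do not inform the comparisons once a replicate block is fitted. They include control replicate 5, the liver with the highest Sesn2 level. Whether a pairing or the loss of these controls moved the following values was not tested. With the replicate block 0 members were called in CTD, 0 in THI + CTD and 1 in CTD against IMZ. There the log2 fold change of Sesn2 in CTD was -0.70 (adjusted p = 0.0732), that of Sesn1 -0.45 (0.0841) and that of Cdkn1a in THI + CTD -0.90 (0.066), while the cell cycle list had 0 calls in THI + IMZ, 6 in THI + CTD and 6 in IMZ + CTD. The further p53 targets had 0 calls in THI and 0 in THI + CTD, so that those of Trp53inp1 and Btg2 were lost, and the regulators had 0 in THI + CTD, so that that of Prkdc was lost. The difference of Sesn2 over all 7 groups had an adjusted p of 0.16 with the block and 0.0535 in thinned counts. That of Ccng1 had 0.0487 in DESeq2. With 3 to 4 livers per treatment and a coefficient of variation of 31.9%, changes of Gadd45a were the least precisely measured.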
